A study of Homo sapiens with 20 samples.

Results

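Caspases and cell death effectors were examined as 9 genes of the 43366 counted. They are the death ligand TNFSF10, the death receptor FAS, the kinase RIPK1, the initiator caspase CASP8, the XIAP antagonist XAF1, the inflammatory caspases CASP1 and CASP4, the pore-forming gasdermin GSDMD and the necroptosis effector MLKL. The genes were given by name and found by their symbol in the table of counts, and all 9 were present. RNA came from U2OS, an osteosarcoma cell line, in 4 groups of 5 libraries (20 in all): WT clones left untreated, WT clones given 250 U/ml IFNγ for 24 h, and ZBTB48 KO clones under the same pair of conditions. Each replicate is a clone grown from the line, so the spread within a group includes differences between clones. ZBTB48 is a zinc finger protein that binds telomeres and promoters, and the study asked how its loss alters transcription after IFNγ.

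IFNγ acts through its receptor and the JAK kinases, and its target genes often carry the GAS motif (letters TTCNNNGAA) or the ISRE motif (letters GAAANNGAAA), which IRF1 binds. Ligands such as TNFSF10 (TRAIL) engage death receptors, which assemble FADD and CASP8 to start apoptosis, while RIPK1 can instead signal through RIPK3 to MLKL, which breaches the plasma membrane in necroptosis. CASP1, activated in inflammasomes, and CASP4, which senses lipopolysaccharide in the cytosol, cleave GSDMD, whose released fragment forms the pores of pyroptosis.

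The windows upstream of annotated starts show which members carry either IFNγ-related motif close to a start. RefSeq windows (GRCh38.p14) from 250 bases before to 50 bases after a start were at hand for 7 of the 9 members, 14 windows in all. Both strands were searched, and 3 members held a match. Among all 35116 windows of that length, 7.66% held a GAS match and 3.57% an ISRE match. These shares are per window and motif, while the count of members takes either motif in any window, so they are not comparable. The upstream 250 bases are printed 5′ to 3′ for the 3 members with a match and for XAF1, which had the largest fold change and no match. Capitals mark the matched letters.
TNFSF10 (chr3:172523431-172523680, minus strand): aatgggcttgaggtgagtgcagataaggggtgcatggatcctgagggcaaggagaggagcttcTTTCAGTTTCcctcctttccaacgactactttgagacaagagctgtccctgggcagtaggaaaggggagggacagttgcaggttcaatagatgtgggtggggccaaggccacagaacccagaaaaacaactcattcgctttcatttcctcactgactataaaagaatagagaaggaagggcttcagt
CASP8 (chr2:201233213-201233462, plus strand): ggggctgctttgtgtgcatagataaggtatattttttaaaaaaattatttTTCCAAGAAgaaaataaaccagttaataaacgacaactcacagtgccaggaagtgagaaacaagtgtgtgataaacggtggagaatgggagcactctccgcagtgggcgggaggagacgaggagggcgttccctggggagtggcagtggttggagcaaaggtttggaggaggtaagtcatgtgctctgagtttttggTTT
RIPK1 (chr6:3068128-3068377, plus strand): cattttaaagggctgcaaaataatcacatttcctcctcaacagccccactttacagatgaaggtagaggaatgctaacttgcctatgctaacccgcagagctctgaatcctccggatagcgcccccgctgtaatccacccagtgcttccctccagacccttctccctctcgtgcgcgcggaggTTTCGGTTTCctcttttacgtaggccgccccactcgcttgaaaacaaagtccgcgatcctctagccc
XAF1 (chr17:6755197-6755446, plus strand): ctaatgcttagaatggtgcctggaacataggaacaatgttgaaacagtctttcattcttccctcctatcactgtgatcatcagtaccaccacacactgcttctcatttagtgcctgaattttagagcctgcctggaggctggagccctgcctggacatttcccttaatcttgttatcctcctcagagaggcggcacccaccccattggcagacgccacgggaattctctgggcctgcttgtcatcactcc
With the start base counted as 0, the TNFSF10 match was an ISRE on the reverse strand from -187 to -178, and the RIPK1 match an ISRE from -67 to -58. The RIPK1 match also lay in the window of the next start, from -183 to -174. CASP8 held a GAS from -200 to -192 and an ISRE from -3 to 6, of which the last 3 capitals above are the upstream part. No match was found in the 3 windows of FAS, in the other windows of CASP8, RIPK1 and XAF1, or in those of CASP4 and MLKL. These matches describe the letters of the windows and not the binding of any factor.

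The genes lay on GRCh38 as follows. TNFSF10 spans positions 172505508 to 172523430 of chromosome 3, FAS 88964050 to 89017059 of chromosome 10, RIPK1 3063967 to 3115187 of chromosome 6, CASP8 201233443 to 201287711 of chromosome 2, XAF1 6755447 to 6775647 of chromosome 17, GSDMD 143553387 to 143563062 of chromosome 8 and MLKL 74671855 to 74700862 of chromosome 16. CASP1 (105025443 to 105036686) and CASP4 (104942866 to 104968574) are neighbours on chromosome 11. Exons of FAS overlap those of ACTA2 by 164 bases and FAS-AS1 by 196 bases on the opposite strand, and short opposite-strand overlaps also touch RIPK1 (570 bases), XAF1 (183 bases) and CASP4 (56 bases). The libraries were stranded, but the strand setting of the counting is not given in the sources used here, so reads of such pairs may not be told apart.

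Total counts ranged from 46652288 to 72952859 per library. A level of 3 counts, taken as the floor, came to 0.0411 to 0.0643 CPM, that is counts scaled to a common library size. All levels below are CPM after TMM scaling by edgeR unless stated. The IFNγ response was present in both genotypes, with IRF1 higher by 4.96 on the log2 scale in WT clones and 4.72 under the KO label. ZBTB48 stood at 8.02 to 9.43 CPM in untreated WT clones, but in the library labelled KO replicate 3 it reached 11.3 CPM, above all of them, and the KO groups are therefore named by their labels. MTFP1, a known ZBTB48 target, stood in untreated WT clones at 40.1 ± 10.6 CPM (SD, n = 5) and at most 0.938 CPM in the untreated libraries labelled KO, replicate 3 included. Of 7 osteoblast lineage markers, SPARC, COL1A1, RUNX2 and ALPL were present, while SP7 and BGLAP were at most at 0.116 CPM and COL1A2 at most at 0.944 CPM. The summed level of 6 markers of other cell types was 1.75 to 13.9 CPM. In the untreated libraries labelled KO the epithelial marker EPCAM alone reached 12.7 CPM, against 0.989 to 9.33 CPM for ALPL in the same group.

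In WT clones IFNγ raised 6 of the 9 genes past the cut-offs, and none fell. XAF1 rose from near 0 by 10.77 on the log2 scale, CASP1 by 5.41 and TNFSF10 by 4.93, while CASP4 rose by 2.14, MLKL by 1.96 and GSDMD by 1.04. CASP8 had a log2 fold change of 0.94, with an adjusted p of 4.28e-05 in edgeR's test but just under the fold cut-off. FAS and RIPK1, with 0.59 and 0.16, did not pass. A gene was called when edgeR's quasi-likelihood test gave a Benjamini-Hochberg adjusted p under 0.01 over all genes tested and a change above 2-fold, and SE is the standard error of a log2 fold change. Of 19522 genes tested, 2.48% were called higher and 0.512% lower. Under the KO label 3 of the 9 genes were called (XAF1, CASP1 and CASP4), all higher, against 1.70% of 19385 genes called higher and 0.258% lower, and all 3 were also called in WT clones. TNFSF10 did not pass the filter on low counts in that comparison, and TNFSF10 and XAF1, like CARD16 and AIM2 below, passed it elsewhere only through their treated libraries, so that passing already implied a difference. CASP1 under the KO label, with 0 counts in untreated replicate 2, and BCL2A1 below likewise needed treated libraries to pass. In bulk RNA, fewer cells with a transcript and less of it per cell cannot be told apart.

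The treated and untreated WT libraries did not overlap for 7 of the 9 genes, all higher after IFNγ, where 6.68% of genes tested were higher without overlap. Under the KO label this held for 6 of the 9, against 6.07% of genes tested. FAS and RIPK1 overlapped under both labels, and TNFSF10 overlapped under the KO label.

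TNFSF10 encodes the soluble or membrane-bound ligand TRAIL. In untreated WT replicates 1 to 5 it had 1, 1, 1, 11 and 0 counts, and after IFNγ 99, 24, 81, 109 and 130 counts, or 1.79, 0.405, 1.09, 1.84 and 2.44 CPM. Every treated WT library thus stood above every untreated one, although all treated levels stayed at or below 2.44 CPM. The ratio of the summed CPM was 29.8 (exact 95% interval 17.6 to 55.0, counting error only), and the fitted log2 fold change was 4.93 (SE 0.83, adjusted p = 0.00304 by edgeR). Without WT replicate 1, 2, 3 or 5 the adjusted p rose to between 0.0126 and 0.0279, so the call needed each of these clones. The fitted change lay between 4.39 (without replicate 5) and 6.53 (without replicate 4) on the log2 scale, and was 1.59 with DESeq2 under normal shrinkage.

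In the untreated libraries labelled KO, TNFSF10 had 6, 0, 7, 0 and 4 counts, and after IFNγ 56, 3, 39, 176 and 87 counts. Replicate 2 stayed at the floor after treatment, and the groups overlapped through it. The ratio of the summed CPM was 19.7 (exact 95% interval 12.1 to 34.1). With no filter on low counts the log2 fold change was 4.32 (adjusted p = 0.0520 by edgeR), and without KO replicate 2 it was 4.34 (adjusted p = 0.00997 by edgeR).

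FAS encodes the receptor for the FAS ligand. It lay between 19.2 and 39.9 CPM (median 27.3) in untreated WT clones and between 34.7 and 49.3 CPM (median 41.9) after IFNγ. The groups overlapped through replicate 1, the highest untreated clone, although each of the 5 WT clones was higher after treatment than before. Its fitted log2 fold change was 0.59 (SE 0.18, adjusted p = 0.0579 by edgeR). Under the KO label the untreated range was 9.29 to 39.9 CPM and the treated range 18.0 to 55.4 CPM, and the fitted change 0.62 (SE 0.38, adjusted p = 0.362 by edgeR).

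RIPK1, the kinase at the branch between survival signalling, apoptosis and necroptosis, had the smallest response of the 9 genes. Untreated WT replicates 1 to 5 stood at 25.2, 22.5, 27.7, 33.6 and 30.1 CPM, and the same clones after IFNγ at 27.6, 26.1, 30.3, 37.3 and 32.8 CPM. The groups overlapped almost throughout, although each clone was slightly higher after treatment. Fitted on the log2 scale, the change was 0.16 in WT clones (SE 0.14, adjusted p = 0.529 by edgeR) and 0.0072 under the KO label (SE 0.11, adjusted p = 0.980 by edgeR). These fits did not use the pairing of libraries by clone. Over 14 alternatives the WT adjusted p, by edgeR or DESeq2, ran from 0.0233 to 0.760, and RIPK1 was never called.

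CASP8, the initiator caspase of the death receptor complex, had the smallest coefficient of variation of the 9 genes within either WT group. Untreated WT replicates stood at 47.1, 44.6, 42.2, 44.2 and 42.3 CPM, and treated ones at 86.5, 77.9, 87.7, 84.7 and 82.4 CPM. The groups were far apart relative to their SDs of 2.0 and 3.89 CPM. The fitted change was 0.94 on the log2 scale (SE 0.085, adjusted p = 4.28e-05 by edgeR), a 1.92-fold change that the fold cut-off left uncalled.

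Under the KO label CASP8 had 40.6, 30.7, 39.0, 35.6 and 37.5 CPM untreated and 74.5, 68.1, 82.0, 66.9 and 67.2 CPM after IFNγ. These groups did not overlap either. Its fitted log2 fold change was 0.97 (SE 0.11, adjusted p = 4.51e-04 by edgeR), again under 2-fold. Leaving out KO replicate 1 or 5 took it past 2-fold, to at most 1.02 on the log2 scale.

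XAF1, a zinc finger protein that antagonises the caspase inhibitor XIAP, had the largest response. It had 4, 0, 1, 0 and 0 counts in the untreated WT clones and 1658, 1555, 2652, 3366 and 1158 counts after IFNγ, or 30.1, 26.3, 35.7, 56.8 and 21.8 CPM. In the untreated libraries labelled KO it had 0, 0, 2, 0 and 0 counts, and after IFNγ 22.2, 33.3, 58.9, 67.5 and 73.1 CPM. It was thus near or at 0 before treatment in all 10 untreated libraries and above 21 CPM in all 10 treated ones.

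The ratio of the summed CPM of XAF1 was 1958 in WT clones (exact 95% interval 839 to 6033) and 6709 under the KO label (exact 95% interval 1857 to 55407). These intervals overlap and rest on 5 and 2 untreated counts. The fitted log2 fold changes, 10.77 (SE 0.60, adjusted p = 9.91e-07 by edgeR) and 12.39 (SE 0.65, adjusted p = 1.38e-06 by edgeR), depend on the count that edgeR adds before taking logs.

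CASP1, the inflammasome caspase that matures IL-1β and IL-18, had 0.765, 1.45, 1.62, 0.652 and 0.230 CPM in the untreated WT clones and 46.5, 42.6, 42.9, 33.5 and 32.1 CPM after IFNγ. The untreated libraries labelled KO stood at 0.984, 0, 1.96, 0.641 and 0.811 CPM and the treated ones at 21.6, 20.03, 34.4, 41.6 and 52.7 CPM. The groups were widely separated under both labels, and the treated levels spread more under the KO label, with an SD of 13.8 CPM against 6.34 CPM. CASP1 rose by 5.41 on the log2 scale (SE 0.44, adjusted p = 1.80e-05 by edgeR) in WT clones and 5.26 (SE 0.75, adjusted p = 0.00213 by edgeR) under the KO label. The latter call was lost, with adjusted p of 0.0182 to 0.0267, without KO replicate 1, 4 or 5. In that comparison CASP1 passed the filter on low counts only with its treated libraries, since untreated replicate 2 had 0 counts. Under normal shrinkage in DESeq2 the change was 3.70 in WT clones and 1.31 under the KO label.

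CASP4, the caspase of the non-canonical inflammasome, was well expressed before treatment. It had 33.2, 36.8, 38.6, 30.4 and 26.1 CPM in the untreated WT clones and 159.5, 140.4, 146, 140.2 and 133 CPM after IFNγ. Under the KO label the values were 41.4, 15.2, 38.9, 27.1 and 25.0 CPM untreated and 129.7, 86.9, 172, 109.9 and 127 CPM treated. The treated WT clones lay close together, with an SD of 9.88 CPM, and replicate 2 was the lowest library under the KO label in both conditions. CASP4 rose by 2.14 on the log2 scale (SE 0.12, adjusted p = 1.22e-06 by edgeR) in WT clones and 2.08 (SE 0.27, adjusted p = 0.00123 by edgeR) under the KO label. Without KO replicate 4 or 5 the latter adjusted p was 0.0161 or 0.0165.

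CASP1 and CASP4 have near copies next to them, and under counting of unique mappers only, their levels are uncertain wherever reads fit a copy as well. CARD16, a CARD-only relative of CASP1, which passed the filter only through its treated libraries, was called in both genotypes, at 3.59 ± 1.04 CPM (SD, n = 5) in treated WT clones, with a log2 fold change of 4.99 (SE 0.82, adjusted p = 0.00259 by edgeR) there and 4.54 (SE 0.77, adjusted p = 0.00538 by edgeR) under the KO label. CARD17 stayed at or below 0.557 CPM in every library and was not called. CASP5 had at most 6 counts and CASP12 at most 2 counts in any library.

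GSDMD is the gasdermin cleaved by both inflammatory caspases. It had 113, 110.2, 114, 95.3 and 81.3 CPM in the untreated WT clones and 225, 224, 223, 179.9 and 196 CPM after IFNγ. Libraries labelled KO had 131, 60.4, 111, 119 and 120.2 CPM untreated and 217, 167, 183, 210.1 and 195 CPM treated. The groups did not overlap under either label, and the untreated replicate 2 under the KO label stood far below the other 4. GSDMD rose by 1.04 on the log2 scale (SE 0.12, adjusted p = 2.83e-04 by edgeR) in WT clones, barely past 2-fold, and its change under the KO label was 0.84 (SE 0.19, adjusted p = 0.0205 by edgeR). Without WT replicate 5 the log2 fold change was 0.9997, just under the cut-off, and GSDMD was not called.

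MLKL, the pseudokinase that executes necroptosis, varied between clones before treatment. It had 4.54, 4.46, 6.72, 1.96 and 1.35 CPM in the untreated WT clones and 14.7, 12.1, 20.6, 15.5 and 10.4 CPM after IFNγ. MLKL under the KO label had 7.18, 0.466, 5.71, 2.19 and 3.28 CPM untreated and 21.3, 14.4, 15.7, 11.1 and 12.9 CPM treated. Treated libraries stood above untreated ones under both labels, and the spread between clones relative to the mean was wider before treatment than after it, while the SD in WT clones was 2.18 CPM before and 3.87 CPM after it.

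The log2 fold change of MLKL was 1.96 (SE 0.40, adjusted p = 0.00893 by edgeR) in WT clones and 2.0 (SE 0.54, adjusted p = 0.0472 by edgeR) under the KO label, so that changes of nearly the same size fell on opposite sides of the cut-off. The WT call was lost without any single WT clone, with adjusted p of 0.0119 to 0.0468, while the coefficient of variation between clones went from 57.2% untreated to 26.4% treated. RIPK3, the kinase that activates MLKL, had 6 counts over the 5 untreated and 18 over the 5 treated WT clones, all of them in WT replicate 5 and thus 0 without it, and at most 1 count over either group labelled KO. ZBP1, a nucleic acid sensor upstream of RIPK3, went from 5 to 93 summed counts in WT clones, a ratio of 17.5 (exact 95% interval 7.25 to 55.3), and from 8 to 144 under the KO label, a ratio of 16.7 (exact 95% interval 8.23 to 39.3).

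**Figure D1:**
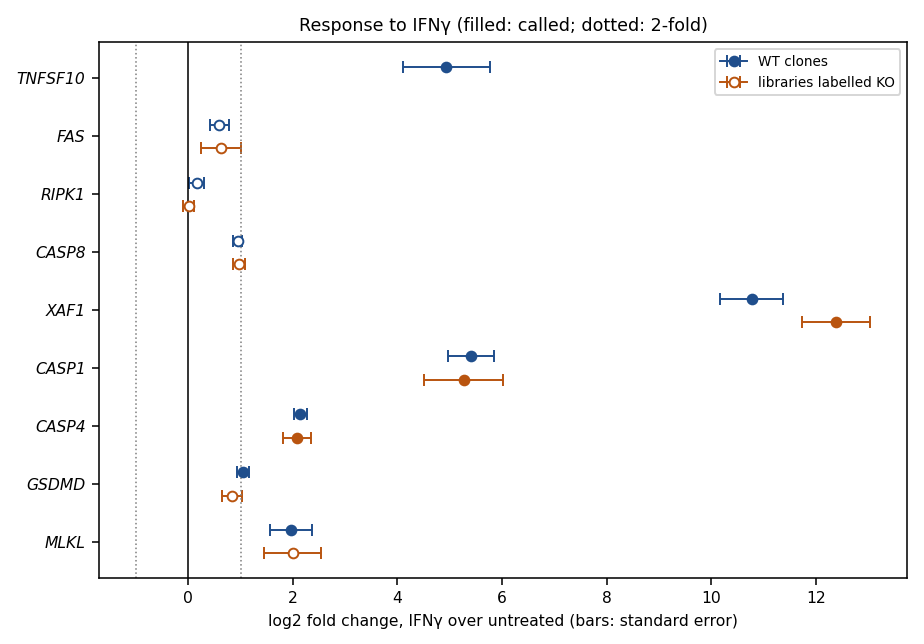
Log2 fold change after IFNγ (horizontal axis) of each gene in WT clones and in the libraries labelled KO, with bars for the standard error, filled points for called genes and dotted lines at 2-fold. XAF1, CASP1 and CASP4 are filled under both labels, and TNFSF10 has no KO point because it did not pass the filter on low counts.

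The comparison of WT with KO labels asks whether ZBTB48 status alters these genes. No member was called in either condition, with 7 members tested untreated and 9 treated. Among all genes tested, 0.0154% were called untreated and 0.0155% treated. DESeq2 called none of the 9 either. At an unadjusted p under 0.05 edgeR gave 1 member in each condition, CASP8 in both, against 4.79% and 4.35% of genes tested.

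CASP8 was slightly lower under the KO label. In untreated libraries the lowest WT clone stood at 42.2 CPM and the highest library labelled KO at 40.6 CPM, so the groups did not overlap. It was the single such member of 9, where 0.625% of genes tested were higher in WT without overlap. The log2 difference was 0.26 (SE 0.10, unadjusted p = 0.0293 and adjusted p = 0.980 with edgeR), and the two-sided exact permutation test gave p = 0.00794, the smallest that 252 permutations allow.

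After IFNγ the WT range of CASP8, 77.9 to 87.7 CPM, overlapped with the range under the KO label, 66.9 to 82.0 CPM, through KO replicate 3. The log2 difference was 0.23 (SE 0.10, adjusted p = 0.996 with edgeR, exact permutation p = 0.0159), and no member was free of overlap, where 0.506% of genes tested were higher in WT without it. In all, 17 such exact tests of single levels were run and 2 gave a p under 0.05, both for CASP8. These 2 compare the same clones in both conditions and are not independent. The share of all genes under 0.05 in this test was not computed.

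XAF1 was the member with the largest other difference fitted by edgeR, with treated WT clones at 34.1 ± 13.7 CPM and treated libraries labelled KO at 51.0 ± 22.2 CPM (SD, n = 5 each). The groups overlapped, with a log2 difference of -0.59 (SE 0.34, adjusted p = 0.996 by edgeR, exact permutation p = 0.238). The other tested members differed by -0.086 to 0.22 on the log2 scale of the edgeR fit over both conditions, with none called. The mean difference in log2(CPM + 0.1), on which the exact tests were run, was larger for treated TNFSF10, at 0.61 (exact permutation p = 0.532), than for XAF1, at -0.52, and without KO replicate 2 it was -0.056 for TNFSF10. For CASP4 after IFNγ the exact permutation p was 0.198 with all libraries, and edgeR's adjusted p was 0.996. Of 12 alternatives, 1 took the exact p under 0.05, to 0.00794 without KO replicate 3. That replicate was the highest treated library under the KO label, at 172 CPM. With it left out, 0.00794 is the smallest p the test can give.

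**Figure D2:**
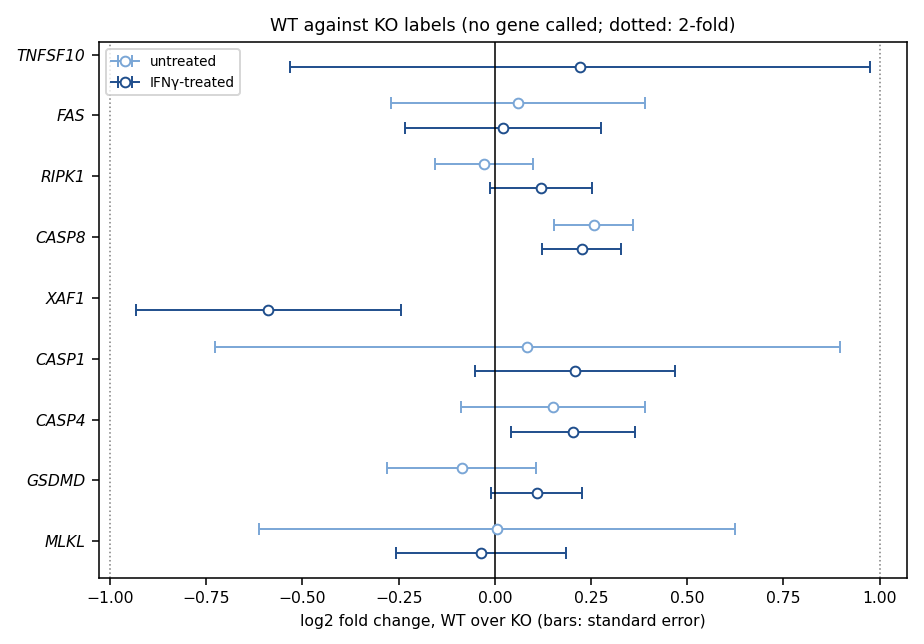
Log2 fold change of WT over KO labels (horizontal axis) of each gene in untreated and IFNγ-treated libraries, with bars for the standard error and dotted lines at 2-fold. No gene is called, and CASP8 lies to the right of 0 in both conditions while the bars of most others cross 0.

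The difference between the IFNγ responses of the genotypes was fitted with edgeR over all 20 libraries. None of the 9 genes was called (adjusted p of at least 0.99999), 0 had an unadjusted p under 0.05, and DESeq2 called none. Over 21052 genes tested edgeR called 0%, and 0.409% had an unadjusted p under 0.05. Responses of single clones, treated minus untreated, were also compared by exact permutation, in 9 tests. RIPK1 gave the single p under 0.05: in WT clones the mean log2 response was 0.15 ± 0.036 (SD, n = 5), above 0 in 5 of 5, and 0.0076 ± 0.14 (SD, n = 5) under the KO label, above 0 in 3 of 5 (two-sided exact permutation p = 0.0397). The difference was 0.14 on the log2 scale, and without KO replicates 4 and 5, whose treated and untreated libraries may not be of the same clone, the exact p was 0.125. The share of all genes under 0.05 in this exact test of responses was not computed. The response of GSDMD differed by 0.15 (exact permutation p = 0.397). Without KO replicate 2, which had the largest GSDMD response under the KO label, the difference was bound to widen. It became 0.29 (exact permutation p = 0.00794, the smallest p possible there). Of 13 alternatives this was the 1 that gave a p under 0.05.

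KO replicate 2 stood apart among these genes before treatment. Leaving out TNFSF10 and XAF1, which were near 0, its untreated library was below the median of its group for 7 of 7 members, by a median of 0.98 on the log2(CPM + 0.1) scale. FAS stood at 9.29 CPM, CASP4 at 15.2 CPM, GSDMD at 60.4 CPM and MLKL at 0.466 CPM, each the lowest of the 5, and CASP1 had 0 counts. After IFNγ the same replicate was below the group median for 4 of 7 members and above it for 1, by a median of 0.22, with FAS lowest at 18.0 CPM. Among untreated WT clones, replicate 5 had the lowest CASP1, CASP4, GSDMD and MLKL. It was below its group median for 5 of 7 members, and so was replicate 4. After IFNγ WT replicate 5 was below its group median for 6 of 7 members, by a median of 0.092. Shares of all genes below the group median were not computed, so shifts of whole libraries cannot be judged.

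**Figure D3:**
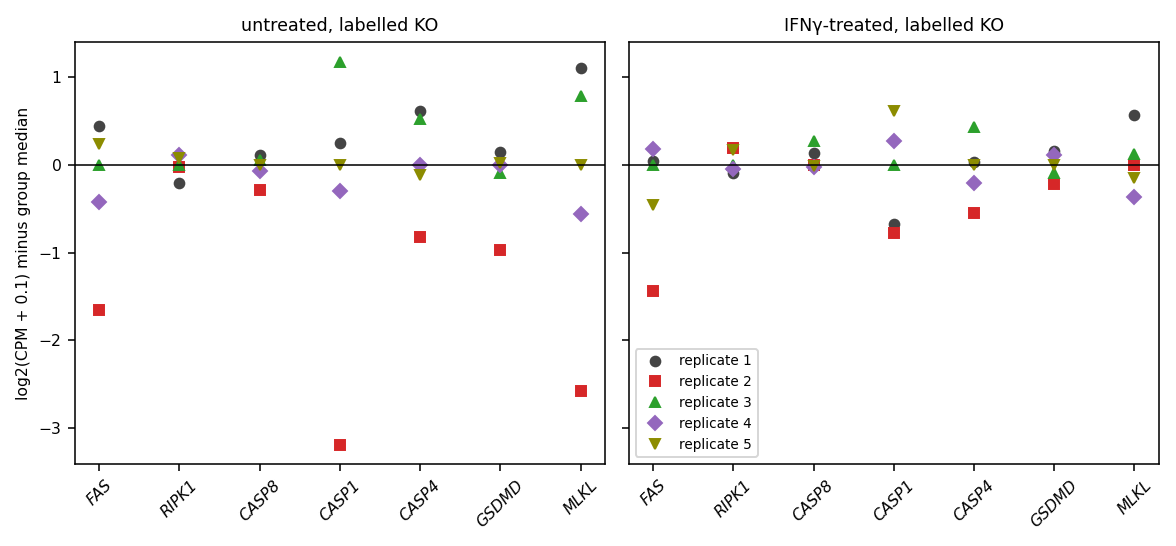
Deviation of each library labelled KO from its group median, in log2(CPM + 0.1) on the vertical axis, for the 7 members not near 0, untreated on the left and IFNγ-treated on the right. Untreated replicate 2 lies below 0 for all 7 and reaches -3.19 for CASP1, and after IFNγ its deviations run from -1.44 for FAS to 0.19 for RIPK1.

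Per kilobase of merged exons, the order of the levels changed with IFNγ. In untreated WT clones GSDMD had 44.1 CPM per kb, CASP4 22.7 and CASP8 6.15, each apart from the next in range. RIPK1 (2.80), FAS (1.72), MLKL (1.45) and CASP1 (0.332 CPM per kb) followed, with neighbours overlapping, and TNFSF10 and XAF1 were near 0. After IFNγ CASP4 (99.0 CPM per kb) and GSDMD (89.9) led with overlapping ranges, and CASP1 (13.9) overlapped with CASP8 (11.7). MLKL (5.57), XAF1 (5.34), RIPK1 (3.10) and FAS (2.57 CPM per kb) overlapped with their neighbours, and TNFSF10 was lowest at 0.507. FAS is divided by 16436 bases of annotated exons and CASP4 by 1453, so annotation length weighs on this order.

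For each gene called in WT clones, the genes with the most similar profile were found by the root mean square difference of centred log2(CPM + 0.1) over the 20 libraries, among 15107 genes. They were SLFN5 (0.847) and CD274 (0.861) for TNFSF10, LGALS17A (0.682) and BATF2 (0.719) for XAF1, and IFIT3 (0.462) and PSMB9 (0.539) for CASP1. For CASP4 they were SP100 (0.253) and PSME1 (0.292), for GSDMD PTPRK (0.213) and TMEM62 (0.222), and for MLKL IFI30 (0.447) and PARP10 (0.520). All libraries enter this measure, so shared differences between treated and untreated libraries weigh most.

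Among 75 other cell death genes in 10 lists, 63 were tested in WT clones, of which 7 were called higher and 2 lower, and under the KO label 2 of 63 were higher and 1 lower. Their median log2 fold change in WT clones was 0.16, against -0.030 over all genes tested. Among the BCL2 family (16 tested), BCL2A1, a pro-survival member, rose by 4.80 (SE 0.57, adjusted p = 3.29e-04 by edgeR), the BH3-only gene PMAIP1 (NOXA) rose by 1.75, and the BH3-only gene BMF fell by 1.51 on the log2 scale in WT clones. PMAIP1 was also called under the KO label, at 1.52, while BCL2A1 was not, at 5.09 with an SE of 1.23 (adjusted p = 0.0290 by edgeR). Under both labels BCL2A1 passed the filter on low counts only with its treated libraries. Its lowest untreated level was 0.0978 CPM in WT clones and 0.0607 CPM under the KO label.

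Among 7 genes of the apoptosome and executioner caspases, APAF1, the scaffold of the apoptosome, fell in both genotypes. WT clones went from 24.6 ± 2.16 to 10.6 ± 1.20 CPM (SD, n = 5), or by -1.20 on the log2 scale (adjusted p = 9.54e-05 by edgeR), and those labelled KO by -1.11 (adjusted p = 0.00666 by edgeR). Exons of APAF1 overlap those of ANKS1B by 648 bases on the opposite strand.

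Among 8 tested inflammasome sensors, adaptor and substrates in WT clones, the sensors NLRP3 (log2 fold change 1.87, edgeR adjusted p = 0.00269) and AIM2 (4.94, edgeR adjusted p = 0.00768) rose. AIM2, whose exons overlap IFI16 on the opposite strand by 101 bases, was at most at 0.162 CPM in untreated WT clones and passed the filter only through the treated ones. It ranged from 0.422 to 7.01 CPM in treated WT clones and from 0.161 to 13.1 CPM in the treated libraries labelled KO. PYCARD, the adaptor that links these sensors to CASP1, had at most 10 counts in any library. Of the CASP1 substrates, IL18 stood at 151 to 291 CPM in WT clones and was not called, and IL1B was at most 0.833 CPM in any library.

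Among 8 tested genes of the list of death receptors and related receptors, TNFRSF12A was called in WT clones at 1.00 on the log2 scale (adjusted p = 0.00105 by edgeR). TNFRSF10B, a TRAIL receptor, was not called, at 0.76 (adjusted p = 0.0197 by edgeR), with 92.2 ± 18.9 CPM untreated and 154.5 ± 32.4 CPM treated (SD, n = 5). The TRAIL receptors TNFRSF10A and TNFRSF10D had at most 3 counts in any library. TNFRSF10C of the same family stood at 0.991 to 2.52 CPM in untreated and 1.49 to 2.92 CPM in treated WT clones, and was not called. Its exons share 261 bases with LOC254896 on the same strand. FASLG, the ligand of FAS, had at most 9 counts. No gene of the receptor complex list (11 tested) was called, CASP8 and RIPK1 included.

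**Figure D4:**
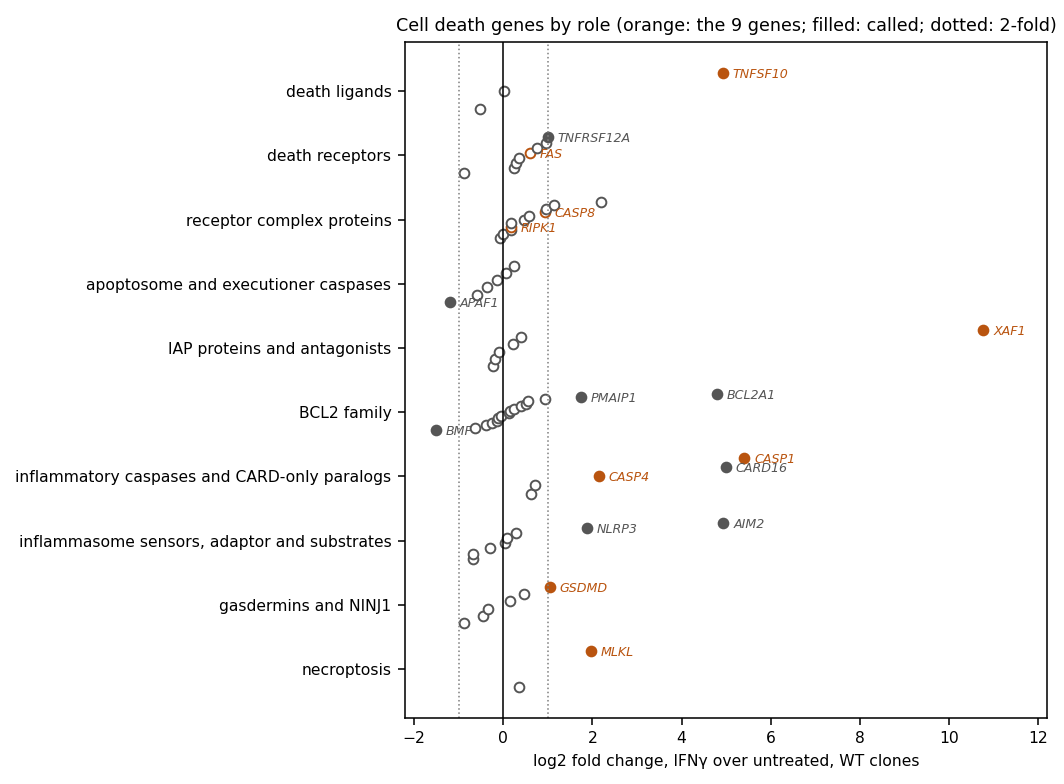
Log2 fold change after IFNγ in WT clones (horizontal axis) of the tested genes of each of the 10 cell death lists, named where called, with 1 gene left out (vertical axis), with the 9 genes in orange, filled points for called genes and dotted lines at 2-fold. XAF1, CASP1, CASP4, TNFSF10, GSDMD and MLKL are filled, and 52 of the 62 points of other genes lie between the dotted lines.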

How the data were processed

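The authors aligned stranded, poly(A)-selected, paired-end RNA-seq reads of the 20 libraries to GRCh38 with STAR 2.7.9a, discarded multimapping reads and assigned the rest to RefSeq genes using featureCounts 2.4.0. They deposited raw counts of 43366 genes with no normalization, and each column was matched to its sample by clone name and treatment. No batch or date is given in the labels. Treated and untreated libraries (5 against 5 within a genotype) and WT and KO labels (5 against 5 within a condition) were compared with edgeR 4.0.16 (R 4.3.3) using TMM scaling, filterByExpr and the robust quasi-likelihood test, and standard errors were derived from the fold change and the F statistic. To compare the responses, 1 fit took in all 20 libraries and ignored that a clone gave 2 of them. The study's methods name DESeq2 with normal shrinkage, and DESeq2 1.42.0 was run as an alternative with and without it. Exact permutation tests used log2(CPM + 0.1). Intervals and floors cover counting error only. The edgeR fits were tested on simulated counts.

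The 9 genes, the lists of cell death genes and the tests were chosen with earlier results of these data known. All 9 genes were named in every group. From each list up to 4 further genes called in either genotype were named, by the size of their change in WT clones, as were CARD16, CARD17, CASP5, CASP12, RIPK3, ZBP1, PYCARD, IL1B and IL18 whatever their values. Of the genes this rule names, 1 called gene is not reported here, although the counts of its list include it. TNFRSF10A, TNFRSF10B, TNFRSF10C, TNFRSF10D and FASLG were added after their values were seen.

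Pairing was checked by correlating the deviations of libraries from their group means over 15115 genes. Treated and untreated WT libraries of the same number correlated at r = 0.789 to 0.891. Those labelled KO correlated at 0.779, 0.847 and 0.698 for replicates 1 to 3, but at 0.000307 and 0.0691 for replicates 4 and 5, which correlated best with each other's number (0.76 and 0.836). WT and KO numbers did not pair (r = -0.257 to 0.254). Alternatives tried were library totals or the size factors of DESeq2 for scaling, no filter, a fit that is not robust, other cut-offs, 1 CPM added in place of 0.1, all 20 libraries, a replicate block and each clone left out. Sequence windows are RefSeq's for GRCh38.p14.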

Additional observations from a re-analysis of the deposited data

Results flagged for a closer look

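GSDMD in the untreated library labelled KO replicate 2 stood at 60.4 CPM, far from the others, of which the nearest was at 111 CPM. This gap was 0.714 of the range of the group, above Dixon's critical value of 0.71 for 5 samples. In all, 33 groups of members were tested in this way and 1 passed, where chance gives about 1.7. The same library was the lowest of its group for FAS, CASP8, CASP1, CASP4 and MLKL, and what sets it apart was not tested.

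The response of RIPK1 per clone differed between WT and KO labels by 0.142678 on the log2(CPM + 0.1) scale (0.15 in WT and 0.0076 under the KO label, two-sided exact permutation p = 0.0397 for 5 against 5 clones), the single difference with p under 0.05 in 9 such tests. In edgeR's test of the difference its adjusted p was 0.99999. Over 13 alternatives the exact p ran from 0.00794 to 0.167 and stayed under 0.05 in 4. It did not stay under 0.05 without KO replicates 4 and 5, whose labelled pairs are in doubt. The share of all genes under 0.05 in this exact test was not computed.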

How the results depend on the processing

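Leaving out any library reduces the samples and the smallest p that can be reached. The number of the 9 genes called after IFNγ in WT clones was 6, between 4 (library totals) and 7 under the other alternatives and between 3 (without WT replicate 5) and 5 without a clone. Under the KO label it was 3, became 6 with an adjusted p under 0.05 and no fold cut-off, 2 with no filter, and lay between 1 (without KO replicate 4) and 4 without a clone. Calls over all genes moved as well. In WT clones they were 585, between 556 and 2202 under the other alternatives and between 318 and 457 without a clone. Under the KO label they were 379, between 306 and 1528 and between 131 and 490. No alternative called any of the 9 genes between WT and KO labels or for the difference between responses. The count of exact tests of responses with p under 0.05, 1 of 9, became 0 with library totals and lay between 0 and 2 without a clone. With the replicate block the counts were 6 and 3 again, over all genes 1414 in place of 585 and 721 in place of 379. No call on a member changed with the block, although FAS in WT clones reached an adjusted p of 0.000304 at a log2 fold change of 0.62. With the block but without KO replicates 4 and 5, CASP1 under the KO label had an adjusted p of 0.0390 and CASP8 a log2 fold change of 1.03 with an adjusted p of 0.00412.

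Direction held for every member value past its threshold, while 73 of 1033 recomputed values changed sign, all for differences that had not passed, and 68 of these came from leaving out 1 clone. Among the values given above, the KO response of RIPK1 turned to -0.036 with library totals and lay between -0.037 and 0.060 without a clone, and the treated TNFSF10 difference between WT and KO labels lay between -0.084 and 0.89 without a clone, or between -0.056 and 1.07 as a mean difference in log2(CPM + 0.1). Normal shrinkage in DESeq2 took the log2 fold change of XAF1 to 6.21 in WT clones and 5.92 under the KO label, and that of MLKL to 1.37 and 1.16, while without a clone XAF1 lay between 10.20 and 12.39 and between 11.99 and 14.44. Of the WT calls, GSDMD was also lost with library totals (0.97 on the log2 scale) and with DESeq2's normal shrinkage (0.99), and MLKL with library totals (adjusted p = 0.0125 by edgeR) and with all 20 libraries fitted together (adjusted p = 0.0183 by edgeR). Normal shrinkage in DESeq2 is not defined for the difference between responses and was not run there.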
